A study of Mus musculus with 2 samples.

Results

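Genes for the mineralising matrix of enamel, dentin and bone were followed in the heads of newborn mice. The members were all probe sets with a single platform gene symbol among 10 genes, namely the enamel genes Amelx, Ambn, Enam and Mmp20 and the dentin and bone genes Dspp, Dmp1, Ibsp, Spp1, Phex and Alpl. The symbols matched 15 of 45037 probe sets, which stand for 9 of 18193 named genes, and no probe set carried the symbol Spp1. RNA of the whole head was hybridised to 2 arrays, 1 for each genotype. The MatDp(dist2) head had maternal copies alone of the end of Chr 2 beyond the T11H breakpoint, and paternal copies alone of distal Chr 9. In the PatDp(dist2) head distal Chr 2 was paternal and distal Chr 9 maternal. Both genotypes arose in newborns bred from carriers of the T(2:9)11H translocation, and neither sex nor the number of animals per RNA is stated in the labels. The comparison asks which transcripts differ with the parental origin of these chromosome parts. With 1 array per genotype there was no replicate check, so no test or p-value is given. Genotype cannot be told apart from differences between individual animals or between the RNA samples. A head here means the RNA of 1 array, which may come from more than 1 animal.

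Teeth form from an epithelium, the enamel organ, and a mesenchyme beneath it. Ameloblasts of the epithelium secrete amelogenin, ameloblastin and enamelin, which an enamel metalloproteinase trims as the crystals grow. Odontoblasts of the mesenchyme lay down dentin, whose mineral is shaped by acidic phosphoproteins that bone cells largely share. In the newborn mouse the incisors are already depositing matrix, while bone is forming throughout the skull and jaws, so a whole head holds bone matrix from many sites and enamel matrix from the teeth alone.

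The secreted enamel matrix genes and the dentin gene Dspp had lower signals in the MatDp(dist2) head, while genes that mark bone matrix lay close together in the 2 heads. Amelx and Ambn were 2.23-fold and 2.71-fold lower in MatDp(dist2), and Dspp was 2.36-fold lower. Dmp1, Ibsp, Phex and Alpl were each within 1.18-fold on their brightest probe set. Of the 8 member genes that reached the floor on each array, 3 were at least 2-fold lower in the MatDp(dist2) head, against 3.52% of the 11270 genes measured this way on the arrays. In the other direction 0 of the 8 were at least 2-fold higher in MatDp(dist2), against 3.73% of those genes. The members were chosen with earlier results of these data known, so the counts beside these shares are a description only. The floor was a signal of 187, the middle of the signals on these arrays, below which no fold is read. In RNA of a whole head, fewer cells of a type and less RNA per cell cannot be told apart.

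**Figure D1:**
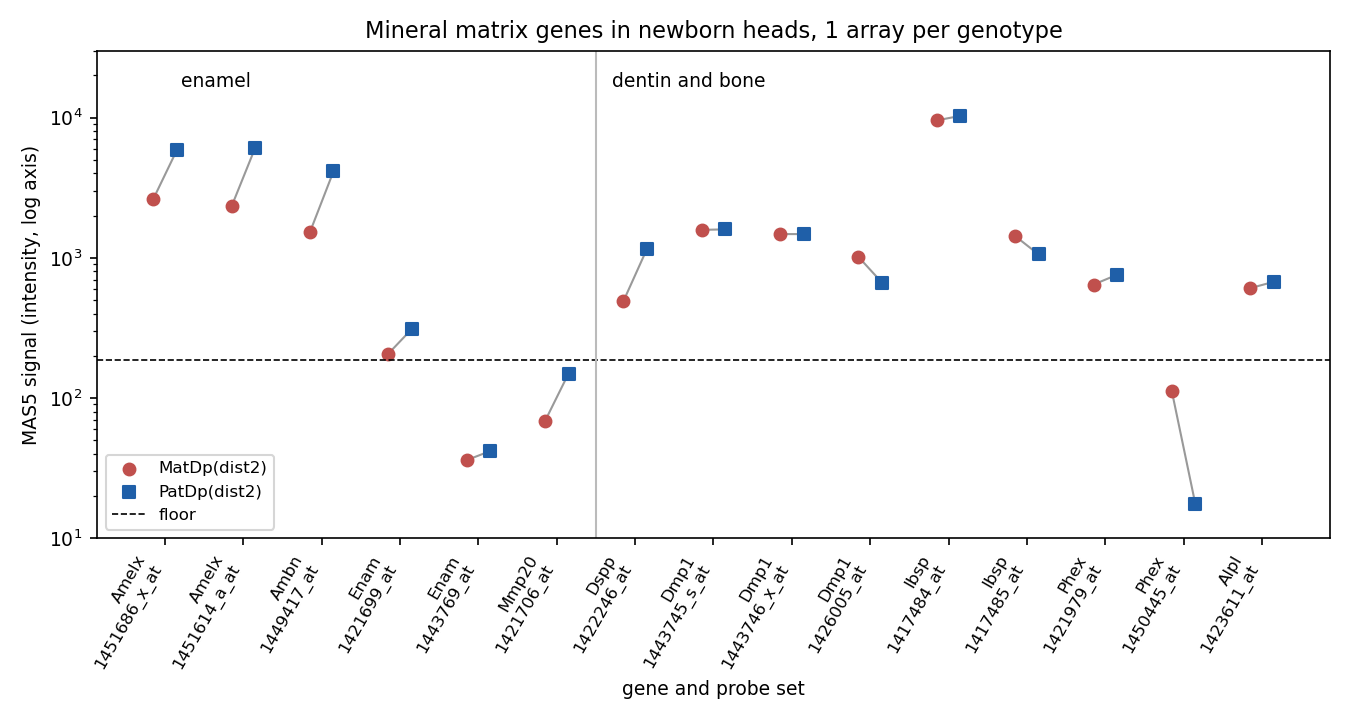
MAS5 signal on a log axis for each member probe set, with the MatDp(dist2) array as a circle on the left and the PatDp(dist2) array as a square on the right of each pair, and the floor of 187 as a dashed line. The pairs of Amelx, Ambn and Dspp slope up towards PatDp(dist2), the brightest pairs of Dmp1, Ibsp, Phex and Alpl are nearly level, and 3 probe sets lie below the floor on both arrays.

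Amelx encodes amelogenin, the main protein of forming enamel, and was read by 2 probe sets. All values are MAS5 signals, a linear intensity. Probe set 1451614_a_at had 2326 in MatDp(dist2) against 6060 in PatDp(dist2), a log2 ratio of -1.38. Probe set 1451686_x_at, whose name marks probes that may bind other sequences too, had 2619 in MatDp(dist2) against 5834 in PatDp(dist2), a log2 ratio of -1.16. Both probe sets were thus more than 2-fold lower in MatDp(dist2), and on the MatDp(dist2) array they read 12.4 and 14.0 times the floor. Ambn encodes ameloblastin, which ameloblasts need to stay attached to the matrix. Its probe set 1449417_at had 1524 in MatDp(dist2) against 4128 in PatDp(dist2), a log2 ratio of -1.44. Among the 11270 genes measured on both arrays, ordered from the lowest ratio of MatDp(dist2) over PatDp(dist2), Ambn stood at place 130 and Amelx at place 270.

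Enam and Mmp20 were dim. Enam encodes enamelin, the largest of the secreted enamel proteins. Its probe set 1421699_at had 206.8 in MatDp(dist2) against 310.5 in PatDp(dist2), a log2 ratio of -0.59, and the MatDp(dist2) signal was only 1.11 times the floor. The other Enam probe set, 1443769_at, lay below the floor with 36.0 in MatDp(dist2) against 41.8 in PatDp(dist2). Mmp20 encodes enamelysin, the metalloproteinase that cleaves amelogenin in the secretory stage. Its only probe set, 1421706_at, had 68.4 in MatDp(dist2) against 149.2 in PatDp(dist2), both below the floor, so no fold is given. Tooth transcripts read above the floor in both heads, with Ambn at 8.14 and Dspp at 2.62 times the floor in MatDp(dist2). Of the 4 enamel genes 3 were measured, and their median log2 ratio was -1.16, beside a median of 0.00 over all 11270 genes.

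The sequences just before the start sites of Amelx and Ambn, which were lower in MatDp(dist2), are shown with those of Enam and Ibsp, an enamel and a bone gene less than 2-fold apart, because the 4 share a short motif at a similar distance. Each run holds the 150 bases before the start in RefSeq on GRCm38.p6, read 5′ to 3′ on the gene's own strand. The run of Amelx lies at chrX:169187210-169187359 on the minus strand. Those of the plus strand lie at chr5:88455841-88455990 for Ambn, chr5:88487825-88487974 for Enam and chr5:104299137-104299286 for Ibsp. Capitals mark CCAAT and its reverse complement ATTGG.
Amelx: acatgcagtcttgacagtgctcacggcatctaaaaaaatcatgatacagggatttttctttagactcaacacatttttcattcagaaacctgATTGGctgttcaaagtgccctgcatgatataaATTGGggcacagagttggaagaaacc
Ambn: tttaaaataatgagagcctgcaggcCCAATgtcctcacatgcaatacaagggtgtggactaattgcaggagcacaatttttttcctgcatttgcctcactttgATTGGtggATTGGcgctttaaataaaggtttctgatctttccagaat
Enam: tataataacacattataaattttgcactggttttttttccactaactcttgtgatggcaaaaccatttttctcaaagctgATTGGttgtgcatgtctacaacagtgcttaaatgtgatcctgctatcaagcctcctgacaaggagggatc
Ibsp: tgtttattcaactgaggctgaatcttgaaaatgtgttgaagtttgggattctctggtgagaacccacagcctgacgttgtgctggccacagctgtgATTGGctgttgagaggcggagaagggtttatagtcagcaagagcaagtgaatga

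CCAAT is the core of the element that the trimeric factor NF-Y binds, and in these 4 runs it stands in the reverse orientation close to the start. The farthest such match within 100 bases of the start began 58 bases before it in Amelx, 47 in Ambn, 70 in Enam and 54 in Ibsp. Promoter sequences were listed for 9 of the 10 members, all but Dspp. At the first listed start of each, 6 of 9 had CCAAT on either strand within 250 bases, against 33.8% of the 32851 listed promoters. For each motif the listed promoters include further starts of some genes, whereas a member is counted at 1 start. Within 100 bases 5 of 9 had it, namely Ambn, Amelx, Enam, Ibsp and Spp1, against 18.9% of the listed promoters. TATAAA, searched on both strands in the same 250 bases, was found in 5 of 9 members and in 12.4% of promoters. In Amelx its last base is the first base of an ATTGG match. TGTGGT, the core bound by Runx factors, was found in 1 of 9 and in 14.0% of promoters. The motifs were picked after these sequences had been read, and the CCAAT letters occurred both before genes that were lower in MatDp(dist2) and before Ibsp, whose signals were near level, so they are given as a description only.

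**Figure D2:**
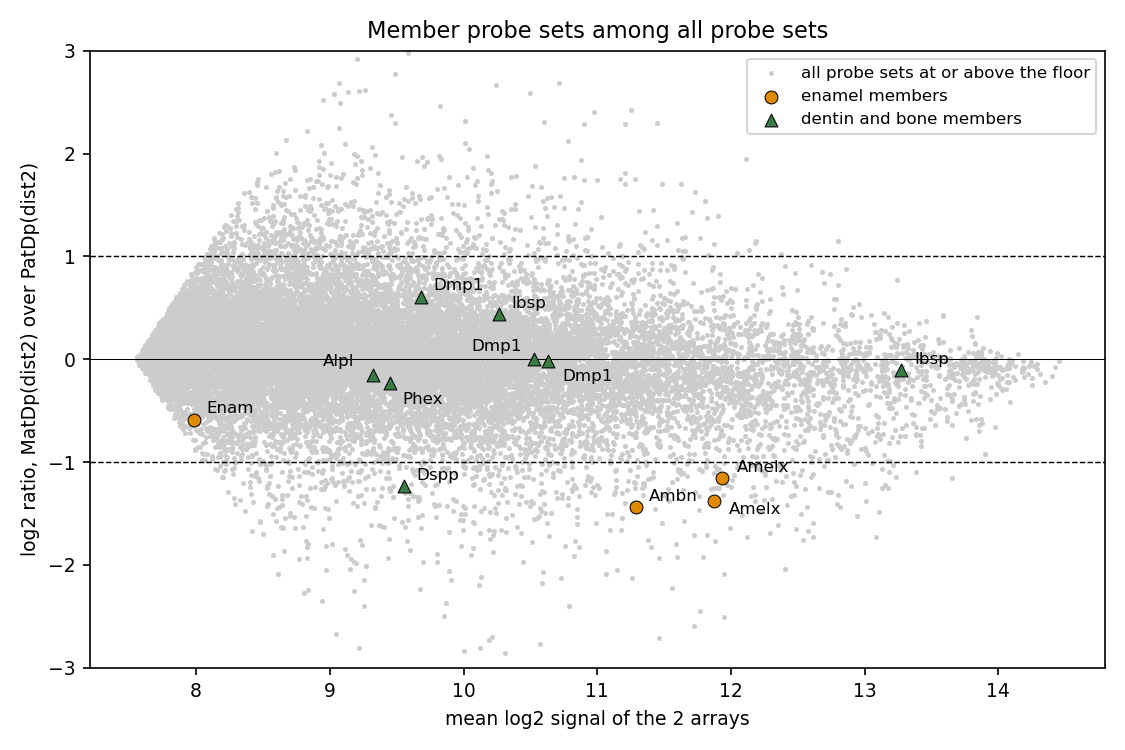
Log2 ratio of MatDp(dist2) over PatDp(dist2) against the mean log2 signal of the 2 arrays, for all probe sets that reached the floor on each array (grey), enamel members (circles) and dentin and bone members (triangles), with dashed lines at 2-fold. Amelx, Ambn and Dspp lie below the lower line, the other members lie between the lines, and 20 probe sets past 8-fold fall outside the axis.

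Among the dentin and bone genes, Dspp stood apart from the other 4 measured. Dspp encodes a precursor that is cut into dentin sialoprotein and dentin phosphoprotein, and it is made chiefly by odontoblasts. Its probe set 1422246_at had 489 in MatDp(dist2) against 1153 in PatDp(dist2), a log2 ratio of -1.24, at place 225 of 11270 from the lowest ratio. Ibsp encodes bone sialoprotein, an early product of mineralising osteoblasts. Probe set 1417484_at of Ibsp had 9564 in MatDp(dist2) against 10286 in PatDp(dist2), 1.08-fold lower in MatDp(dist2). Its dimmer probe set 1417485_at had 1429 in MatDp(dist2) against 1056 in PatDp(dist2), 1.35-fold higher in MatDp(dist2), so the probe sets of Ibsp took opposite directions, both under 2-fold.

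Dmp1 encodes dentin matrix protein 1, an acidic phosphoprotein of odontoblasts and osteocytes. Its probe sets 1443745_s_at and 1443746_x_at were level, with 1582 and 1477 in MatDp(dist2) against 1596 and 1476 in PatDp(dist2). The name of 1443746_x_at, as for Amelx, marks probes that may bind other sequences too. Probe set 1426005_at had 1016 in MatDp(dist2) against 666 in PatDp(dist2), 1.53-fold higher in MatDp(dist2), so no Dmp1 probe set was 2-fold apart. Phex encodes a membrane peptidase of osteoblasts, osteocytes and odontoblasts whose loss causes phosphate wasting. Its probe set 1421979_at had 644 in MatDp(dist2) against 757 in PatDp(dist2), 1.18-fold lower in MatDp(dist2). The other, 1450445_at, was below the floor with 111.5 in MatDp(dist2) against 17.5 in PatDp(dist2). Alpl encodes the alkaline phosphatase that removes the mineral inhibitor pyrophosphate, and other tissues of the head make it too. Its probe set 1423611_at had 608 in MatDp(dist2) against 674 in PatDp(dist2), 1.11-fold lower in MatDp(dist2).

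The 5 measured dentin and bone genes had a median log2 ratio of -0.15, which Dspp did not set. On their brightest probe sets all 8 measured members had a lower signal in MatDp(dist2). The direction of Ibsp and Dmp1 changed with the processing, since both were slightly higher in MatDp(dist2) after quantile normalization, after a loess fit or as a mean over their probe sets. Over probe sets, 9 of the 12 measured on both arrays were lower in MatDp(dist2) and 3 were higher. Of these 12, 4 were at least 2-fold lower in MatDp(dist2), against 2.94% of 20784 probe sets, and 0 were at least 2-fold higher, against 3.61%. Bright probe sets on these arrays leaned towards PatDp(dist2). Between mean log2 signals of 11 and 12, where Amelx and Ambn lay, the median log2 ratio was -0.12 and 5.25% of probe sets were at least 2-fold lower in MatDp(dist2). Between 9 and 10, where Dspp lay, the median was 0.06 and the share was 2.71%.

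A ratio of members within an array does not depend on a single scaling factor per array. Relative to Ibsp, Ambn was 2.52-fold lower in MatDp(dist2), Dspp 2.19-fold, Amelx 2.07-fold and Enam 1.40-fold. Relative to Alpl the same genes were 2.44-fold, 2.13-fold, 2.01-fold and 1.35-fold lower. Relative to Col1a1, the gene of the main collagen chain of bone and dentin, they were 2.68-fold, 2.33-fold, 2.20-fold and 1.48-fold lower. Against the same collagen gene the log2 ratio differed by 0.01 for Dmp1 and by -0.09 for Ibsp.

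Some members that neighbour each other in the genome differed in ratio and others lay close. By the gene order of the RefSeq table, 5 of the 9 members on the arrays lie on Chr 5 and 2, Amelx and Phex, on Chr X. Alpl is on Chr 4 and Mmp20 on Chr 9, and 0 members are on Chr 2. The 150 bases before the start of Mmp20 lie at chr9:7628081-7628230. The labels do not say where the duplicated part of Chr 9 begins, so whether Mmp20 lies in it is not settled by them. Dspp, Dmp1, Ibsp, Mepe and Spp1 are 5 consecutive protein-coding genes, and in this row Dspp had a log2 ratio of -1.24 beside -0.01 for Dmp1 and -0.11 for Ibsp. Mepe, a phosphoprotein gene of bone and dentin, was below the floor with 71.9 in MatDp(dist2) against 125.9 in PatDp(dist2). In another row of 11 protein-coding genes from Odam to Enam, Amtn, Ambn and Enam follow each other with log2 ratios of -0.56, -1.44 and -0.59. Odam, at the start of the row, was 2.00-fold lower in MatDp(dist2), the salivary gene Smr2 had a log2 ratio of -0.78, and the casein gene Csn3 one of -0.11. The gene before Amtn, Prol1, had the lowest log2 ratio of the row, at -3.11, with 1725 in MatDp(dist2) against 14929.5 in PatDp(dist2).

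Other genes of the enamel organ divided. The list held 15 genes beside the members, of which 11 were on the arrays and 7 were measured. Odam, a protein of maturation-stage ameloblasts and of the epithelium that seals the tooth, had 338 in MatDp(dist2) against 677 in PatDp(dist2), 2.00-fold lower in MatDp(dist2) and right at the threshold. Amtn, the maturation-stage protein amelotin, had 253 in MatDp(dist2) against 373 in PatDp(dist2). Tuft1, a tuftelin gene that is also expressed outside teeth, went the other way with 664 in MatDp(dist2) against 382 in PatDp(dist2). Klk4, the protease of maturing enamel, was below the floor in both heads with 76.3 in MatDp(dist2) against 58.0 in PatDp(dist2), as were Slc24a4, Fam20a and Itgb6. Of the 7 measured genes 1 was at least 2-fold lower in MatDp(dist2), against 3.47% of the 12483 genes measured on at least 1 array, and 0 were at least 2-fold higher, against 4.43%. Their median log2 ratio was 0.04, beside 0.02 over those 12483 genes.

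Regulators of the tooth germ gave no common direction. Of 12 measured regulators of its epithelium, 2 were at least 2-fold higher in MatDp(dist2) against 4.43% of all 12483 genes, and 0 were at least 2-fold lower against 3.47%, with a median log2 ratio of 0.06. The 2 became 1 with a 70th-percentile floor and 0 with the offset of 100. Lef1, a nuclear partner of Wnt signals, had 440 in MatDp(dist2) against 177 in PatDp(dist2), below the floor there, at least 2.35-fold higher. Sox2, a stem cell factor of incisor epithelium and of brain, was 2.08-fold higher, with 1865 in MatDp(dist2) against 899 in PatDp(dist2). Tbx1, which patterns pharyngeal and dental epithelium, had 586 in MatDp(dist2) against 890 in PatDp(dist2). Shh, the signal of the enamel knot, had a log2 ratio of -0.33, and Msx2 of -0.01. Of 9 measured genes of tooth mesenchyme, 2 were at least 2-fold higher in MatDp(dist2), again against 4.43%, 0 were at least 2-fold lower, and the median was -0.10. The count was 1 after quantile normalization and 0 with the higher floor or the offset. The 2 genes were Lhx6, with 448 in MatDp(dist2) against 192 in PatDp(dist2), and Dlx1, with 386 in MatDp(dist2) against 30.8, below the floor, in PatDp(dist2), at least 2.06-fold higher in MatDp(dist2). Both are also made by forebrain interneurons. Pax9, needed for tooth buds to form, had 221 in MatDp(dist2) against 351 in PatDp(dist2), and Msx1 had a log2 ratio of 0.12.

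Bone-forming genes lay close to level, in the manner of Ibsp and Alpl. Of 12 measured collagen and matrix genes of osteoblasts and odontoblasts, 0 were at least 2-fold apart in either direction. Of all 12483 genes measured on at least 1 array, 3.47% were at least 2-fold lower and 4.43% at least 2-fold higher in MatDp(dist2). A count of 0 in so few genes is near those shares. The log2 ratios of the 12 ran from -0.42 to 0.59 with a median of -0.08. Col1a1 had 14080 in MatDp(dist2) against 14256 in PatDp(dist2), and Col1a2 had 17859 in MatDp(dist2) against 19328 in PatDp(dist2). The largest differences were those of Smpd3, a sphingomyelinase needed for mineralisation (log2 ratio 0.59), Omd, the keratan sulfate proteoglycan osteomodulin (-0.42), and the fibrillar collagen gene Col5a2 (-0.33). Of 8 measured osteoblast regulators 0 were 2-fold apart, again near those shares, with a median of 0.00. Dlx5, a homeobox gene of jaw and bone, had a log2 ratio of 0.75, Atf4 of -0.31 and Sp7, the osterix gene of committed osteoblasts, of -0.26.

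Of genes that handle phosphate, pyrophosphate or the phosphorylation of matrix proteins, 9 were measured. Among these 9, 1 was at least 2-fold higher in MatDp(dist2), against 4.43% of all 12483 genes, and 0 were at least 2-fold lower, against 3.47%. With a 70th-percentile floor or the offset of 100 the count was 0. The gene was the phosphate transporter gene Slc34a2, an epithelial form, with 484 in MatDp(dist2) against 215 in PatDp(dist2). Galnt3, which protects the phosphate hormone Fgf23 by glycosylation, had 238 in MatDp(dist2) against 391 in PatDp(dist2). Ank, the pyrophosphate exporter, had a log2 ratio of -0.04, and Fam20c, the kinase of secreted matrix proteins, of 0.40. The osteocyte list, which shares Dmp1 and Phex with the members, had 4 measured genes with a median of -0.20. Of these 4, 0 were 2-fold apart, near the same shares of 4.43% higher and 3.47% lower. Pdpn, the podoplanin of young osteocytes, had a log2 ratio of -0.30 and the Wnt inhibitor gene Dkk1 of -0.17, while Sost, Mepe and Fgf23 were below the floor in both heads.

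**Figure D3:**
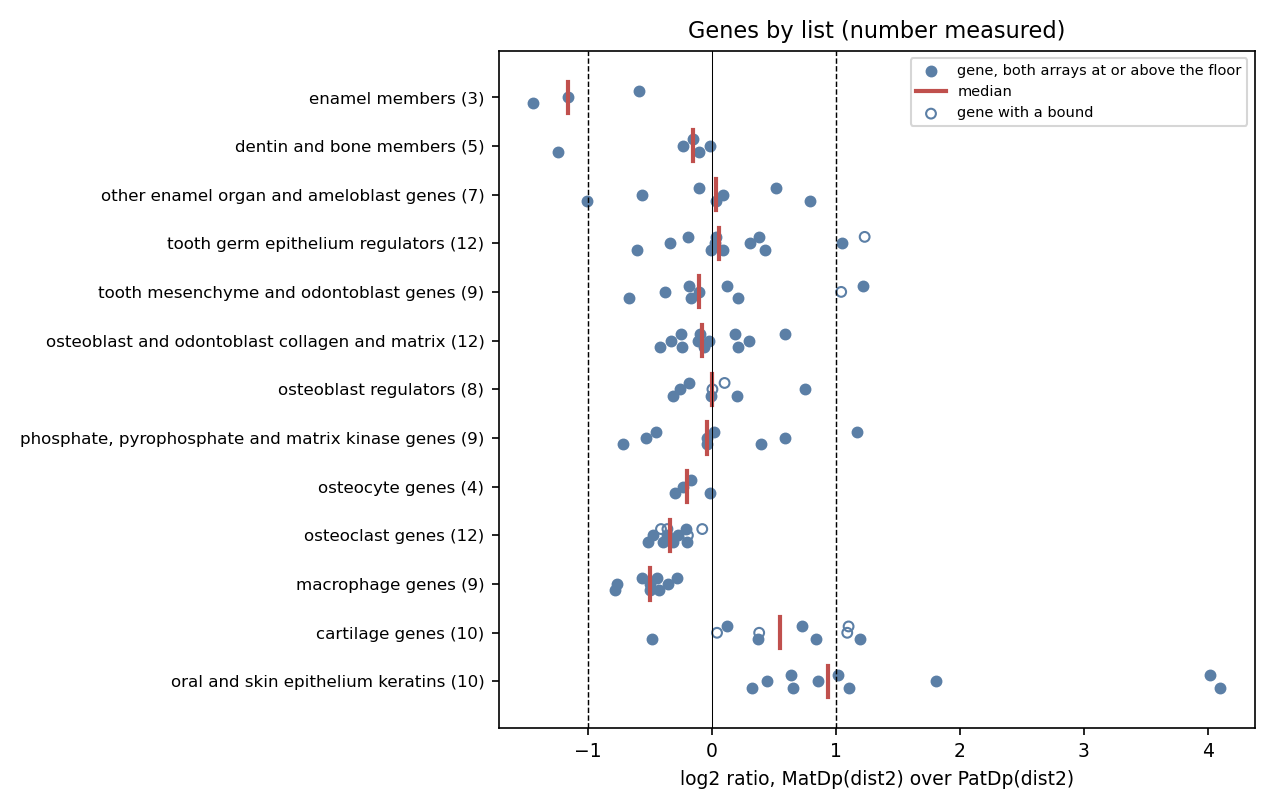
Log2 ratio of MatDp(dist2) over PatDp(dist2) for each measured gene (filled points), with open points for genes below the floor on 1 array, red bars for list medians and dashed lines at 2-fold, by list with the number measured in brackets. The enamel members have a median of -1.16, the bone-forming lists lie near 0, and the keratin list lies to the right.

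Markers of other cells of the head differed between the arrays in the same or the opposite direction, and their part in the tooth and bone values was not tested. Of all 12483 genes measured on at least 1 array, 48.0% were lower in MatDp(dist2). At least 2-fold lower in MatDp(dist2) were 3.47% of them, and at least 2-fold higher 4.43%. A count of 0 past 2-fold in the osteoclast or macrophage list is near those shares. Osteoclast genes were lower in MatDp(dist2) in 12 of 12 measured, 4 of them as bounds, with a median log2 ratio of -0.33 and summed signals of 10098 in MatDp(dist2) against 12977 in PatDp(dist2). Acp5, the acid phosphatase of osteoclasts, had a log2 ratio of -0.52, Nfatc1 of -0.47 and Dcstamp, as a bound, of -0.41. None of the measured ratios or bounds reached 2-fold, except that with a 30th-percentile floor 1 did, Dcstamp, whose signals were 112.9 in MatDp(dist2) against 248.4 in PatDp(dist2). The other genes of the list were below the floor in both heads and did not share a direction. The receptor gene Tnfrsf11a had 184.8 in MatDp(dist2) against 168.7 in PatDp(dist2), just under the floor. Its ligand gene Tnfsf11 had 67.9 in MatDp(dist2) against 56.6 in PatDp(dist2), and Ocstamp had 5.3 against 41.7. Macrophage genes were lower in MatDp(dist2) in 9 of 9 measured, 0 of them 2-fold apart, with a median of -0.49 and summed signals of 9115 in MatDp(dist2) against 13946 in PatDp(dist2). The remaining gene of the list, Gpnmb, went the other way below the floor, with 112.7 in MatDp(dist2) against 88 in PatDp(dist2). Csf1r, the receptor for the macrophage growth factor, had a log2 ratio of -0.78, the complement gene C1qb of -0.77 and the mannose receptor gene Mrc1 of -0.56.

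Surface epithelium and most cartilage genes went the other way from the enamel genes. All 10 keratin and basal epithelium genes were higher in MatDp(dist2), 5 of them at least 2-fold against 4.43% of all 12483 genes. The 5 became 4 after median centring. The list had a median log2 ratio of 0.94 and summed signals of 50554 in MatDp(dist2) against 15834 in PatDp(dist2). Krt10 and Krt1 of the outer skin had log2 ratios of 4.10 and 4.02, Krt13 of the oral lining 1.81, Krt6a 1.11 and Krt4 1.02. Krt14, the basal layer keratin that the enamel organ also makes, had 2359 in MatDp(dist2) against 1517 in PatDp(dist2). Relative to Krt14, Ambn was 4.21-fold and Amelx 3.46-fold lower in MatDp(dist2). These folds include the difference of Krt14 itself, 1.56-fold higher in MatDp(dist2). In RNA of a whole head, Krt14 of skin and mouth cannot be told apart from that of the enamel organ. Of 10 measured cartilage genes 9 were higher in MatDp(dist2), 3 of them at least 2-fold against 4.43% of all 12483 genes, and 0 were at least 2-fold lower against 3.47%. The 3 became 1 with a 70th-percentile floor and with the offset of 100, and 7 of 9 were higher after quantile normalization. The list had a median of 0.55 and summed signals of 9195 in MatDp(dist2) against 5916 in PatDp(dist2). Col2a1, the main cartilage collagen, had a log2 ratio of 1.20, and Sox5 and Cnmd had bounds of 1.10 and 1.09. Sox6, a partner of Sox5 that muscle also makes, was the exception, with 1332 in MatDp(dist2) against 1857 in PatDp(dist2).

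**Figure D4:**
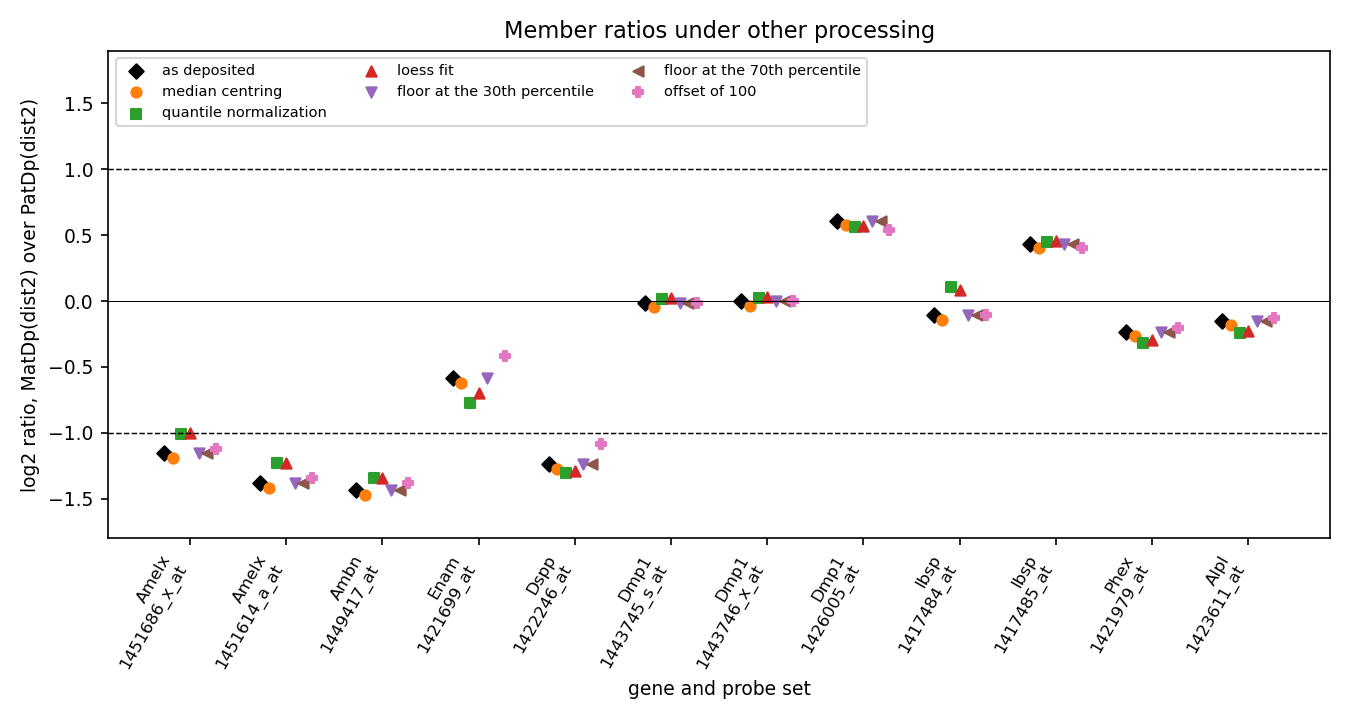
Log2 ratio of MatDp(dist2) over PatDp(dist2) for each member probe set measured on both arrays, as deposited (black diamonds) and under 6 other settings of scaling, floor and offset, with dashed lines at 2-fold. Amelx, Ambn and Dspp stay at or below the lower line in each of these settings, and the brightest Ibsp probe set lies on either side of 0.

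Under other settings Ambn ranged from -1.47 to -1.34 in log2 ratio, Dspp from -1.30 to -1.09, and the brighter Amelx probe set from 2.28-fold to 2.00-fold lower in MatDp(dist2), the smallest fold being that of the loess fit, and quantile normalization gave nearly the same. Enam ranged from -0.78 to -0.42 and did not reach 2-fold. At a threshold of 1.5-fold 4 of the 8 members, with Enam as the fourth, were lower in MatDp(dist2), against 11.2% of the 11270 genes, and 0 were higher, against 10.9%. At a 3-fold threshold 0 of the 8 members were apart, against 0.825% of 11270 genes lower and 0.745% higher in MatDp(dist2).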

How the data were processed

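Total RNA of whole newborn heads was measured on 2 arrays, 1 per genotype, and their number limits the precision of every value. The values are linear intensity signals as deposited by the authors, made with MAS5 and GCOS per the submitters' processing notes, which name no version or genome build. Each array had a mean of 500.002 without its lowest and highest 2% of probe sets, so the deposited signals were already scaled alike. Gene names came from the platform annotation and were updated, by gene ID, to those of a RefSeq table of GRCm38.p6, which gave only names and gene order. Promoter sequences also came from RefSeq. Of 45037 probe sets other than controls, 34945 had 1 gene symbol, 932 had several and 9160 had none, and only those with 1 were named.

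The brightest probe set, by mean log2 signal, stood for a gene, and members are given on every probe set. For some genes, among them Krt14 and Sox6, its name ended in _x_at, which marks probes that may bind other sequences too. The ratio was MatDp(dist2) over PatDp(dist2). The floor was the 50th percentile of the signals, as the median of the values from each array. A signal below it on 1 array gave a bound ("at least"), and below it on both arrays no fold was given. The threshold was 2-fold, and no test was possible with 1 array per genotype. The alternatives were median centring, quantile normalization, a loess fit, floors at the 30th and 70th percentile, an offset of 100, the mean over probe sets, and thresholds of 1.5-fold and 3-fold. Every probe set of the members was named, with the 3 largest differences and any gene past 2-fold of each of 11 comparison lists, and other genes named were chosen after their values were seen. The members and lists were chosen with earlier results of these data known. Calculations used Python 3.11.15 with numpy 2.4.6, pandas 2.3.3 and statsmodels 0.14.6, and the rules for folds and bounds were tested on simulated data.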

Additional observations from a re-analysis of the deposited data

How the results depend on the processing

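Across 9 alternatives the count of members at least 2-fold lower in MatDp(dist2) was 3, always Ambn, Amelx and Dspp, except with the other thresholds. A 1.5-fold threshold gave 4, with Enam added. A 3-fold threshold gave 0, since the largest member fold, that of Ambn, was 2.71. The count at least 2-fold higher in MatDp(dist2) was 0 in each. Not every alternative could move these calls. Both floors and the mean over probe sets left the ratios of Ambn and Dspp unchanged, since each had 1 probe set, above both floors. Median centring moved the member ratios all by the same amount. Only quantile normalization, the loess fit and the offset changed them by amounts that depended on the signal. The median of the enamel genes ran from 2.46-fold to 2.00-fold lower in MatDp(dist2), and that of the dentin and bone genes from -0.24 to -0.13 in log2 ratio. The floor at the 70th percentile left out Enam, and that at the 30th percentile gave Mmp20 a bound of -0.99 and the dim Phex probe set one of 0.57. The brightest Ibsp probe set reached 0.11 after quantile normalization, and the cause was not tested. Of 346 other recomputed values, 31 moved across the threshold, by more than 1.5 times or by more than the spread of all probe sets. Among them Odam fell short of 2-fold with the offset of 100 and had a bound under 2-fold with the higher floor, and the counts past 2-fold of the tooth germ, phosphate and cartilage lists became smaller with both. The medians of the tooth germ epithelium, tooth mesenchyme, enamel organ, osteoblast matrix, osteoblast regulator and phosphate lists lay near 0 and changed sign between settings. No paired analysis was possible because each genotype had 1 array. Low signals limit Enam and Mmp20, which lay near or below the floor.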
